A study of Mus musculus with 2 samples.

Results

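The Kcn genes encode the potassium channels and most of their auxiliary subunits. Potassium channels let potassium leave or enter a cell through a narrow filter, and so set the resting potential, end action potentials and take up potassium around active neurons. Voltage-gated channels (Kv) open on depolarisation, inward rectifiers (Kir) pass current best near rest, calcium- or sodium-activated channels follow the ion that entered the cell, and the K2P channels, whose subunits each hold a pair of pore loops, leak potassium at rest. Auxiliary subunits of the Kv beta, KChIP, BK beta and MinK groups alter where and how these channels open. In the cerebral cortex several of the Kv7 and sodium-activated genes are known from epilepsies that begin early in life.

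All gene symbols that start with Kcn and have at least 1 transcript of type protein_coding were taken. The rule found 94 genes of 55536 gene rows with an Ensembl identifier, and used no expression value. The symbols fall into 77 pore-forming or silent subunits and 17 auxiliary or other members. RNA came from the left cerebral cortex of 2 B6CASTF1/J mice, both females of 10 days from The Jackson Laboratory and F1 hybrids of C57BL/6J and CAST/EiJ. Total RNA was sequenced. Ribosomal RNA was reduced, 300 ng of RNA went into each library with ERCC spike-ins, and no mutation or treatment is named in the labels. The labels call the animals biological replicates 1 and 2 and give both the same donor label; the females are numbered separately. They form 1 group with no contrast, so an exact two-sided test could not give a p under 0.5 and none is given. SDs describe these 2 animals only.

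The gene tables held 29990965 reads in replicate 1 and 31156256 in replicate 2, of which 148036 and 156650 fell on Kcn genes. All 7 markers of cortical neurons on the list used to check the tissue reached 1 TPM in each library, with Slc17a7 at 522 and 501 TPM and Snap25 at 594 and 589 TPM. TPM, the deposited expression values, are scaled per transcript length, so levels can be set between genes. In bulk tissue fewer cells of a type and less RNA per cell cannot be told apart. The oligodendrocyte-lineage list of 6 genes summed to 231.3 TPM in replicate 1 and 367.9 TPM in replicate 2, where Mbp was at 90.02 and 181 TPM. The choroid plexus list of 5 genes summed to 5.68 and 11.9 TPM, with Ttr at 3.98 and 9.70 TPM. Ttr was the only 1 of the 5 at 1 TPM or more in both libraries. By TPM Kl and Clic6 were higher in replicate 2, and Folr1 and Otx2 lower. The striatal list of 6 genes summed to 89.1 and 72.9 TPM.

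The shared feature of the pore-forming members is the selectivity filter, whose coding stretch follows for 11 examples from several families. Each run has 27 bases of a GENCODE M21 coding sequence (mm10), written 5′ to 3′ on the coding strand, and the 9 capitals encode glycine, tyrosine or phenylalanine, glycine.
Kcnq3 (chr15:66023722-66023748, minus strand): gccaccattGGTTATGGAgacaagaca
Kcna6 (chr6:126738638-126738664, minus strand): accacggtaGGTTATGGGgacatgtac
Kcnb2 (chr1:15710043-15710069, plus strand): accactgtgGGCTACGGTgacatttac
Kcnf1 (chr12:17175052-17175078, minus strand): accacagtgGGCTATGGTgacatctac
Kcnc4 (chr3:107447790-107447816, minus strand): acaacgcttGGCTATGGGgacatgtat
Kcnma1 (chr14:23528404-23528430, minus strand): tctacagtgGGTTATGGGgacgtttat
Kcnj4 (chr15:79485358-79485384, minus strand): acgaccattGGCTACGGGttccggtgt
Kcnh3 (chr15:99232926-99232952, plus strand): accagtgtgGGCTTCGGCaacgtgtcc
Kcnt1 (chr2:25894364-25894390, plus strand): tcaactgtgGGCTTCGGTgatgtgacg
Kcnj11 (chr7:46099487-46099513, minus strand): gtgaccattGGTTTCGGCgggcgcatg
Kcnk2, second pore loop (chr1:189256572-189256598, minus strand): acgaccattGGATTTGGAgactacgtg

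All of these lie in coding exons. The motifs GGNTATGGN, GGNTACGGN, GGNTTTGGN and GGNTTCGGN were searched in frame on the coding strand of the longest coding transcript of each gene. At least 1 of them was found in 77 of 77 pore-forming or silent subunits and in 0 of 17 auxiliary or other members. In the same search 2899 of 21853 nuclear protein-coding genes held it (13.3%). A match at the expected place follows a threonine or serine codon, 2 codons upstream. There were 88 such stretches, of which 86 were read further, leaving out Kcng2 and Kcnn2 on mouse chromosome 18. Tyrosine was encoded in 59 of them and phenylalanine in 27. In the Kcnh family 8 of 8 stretches encoded phenylalanine, as in Kcnh3 above, and in Kcna, Kcnb, Kcnc, Kcnd, Kcnq and the 9 silent Kv genes read, all encoded tyrosine. Among the inward rectifiers 2 of 15 held phenylalanine, and the members Kcnj8 and Kcnj11, the pore subunits of ATP-sensitive channels, are those 2. The second pore loop of K2P genes held phenylalanine in 11 of 11 stretches. Kcnk1, Kcnk6 and Kcnk7 had no match for a second loop.

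The stretches of Kcnh3 and Kcnh7 differed at 6 of 27 bases and those of Kcnj2 and Kcnj4 at 4. Motif matches describe sequence only and carry no information on the level of a gene.

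Most Kcn genes were expressed, many at middle levels and none at the level of the most abundant cortical messages. At 1 TPM or more in both libraries stood 67 of 94 members (71.3%), beside 59.1% of all nuclear protein-coding genes (13003 of 22015). At 10 TPM or more in both were 46 members (48.9%), beside 37.3% of coding genes. No member reached 100 TPM in both libraries, whereas 952 coding genes did (4.32%). The median member was at 10.6 TPM in replicate 1 and 9.18 TPM in replicate 2, and the median coding gene at 4.04 and 3.70 TPM. Summed, the members made up 1734 and 1690 TPM, which was 0.341% and 0.349% of the TPM of nuclear protein-coding genes. The 10 highest members held 36.8% of that sum.

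**Figure D1:**
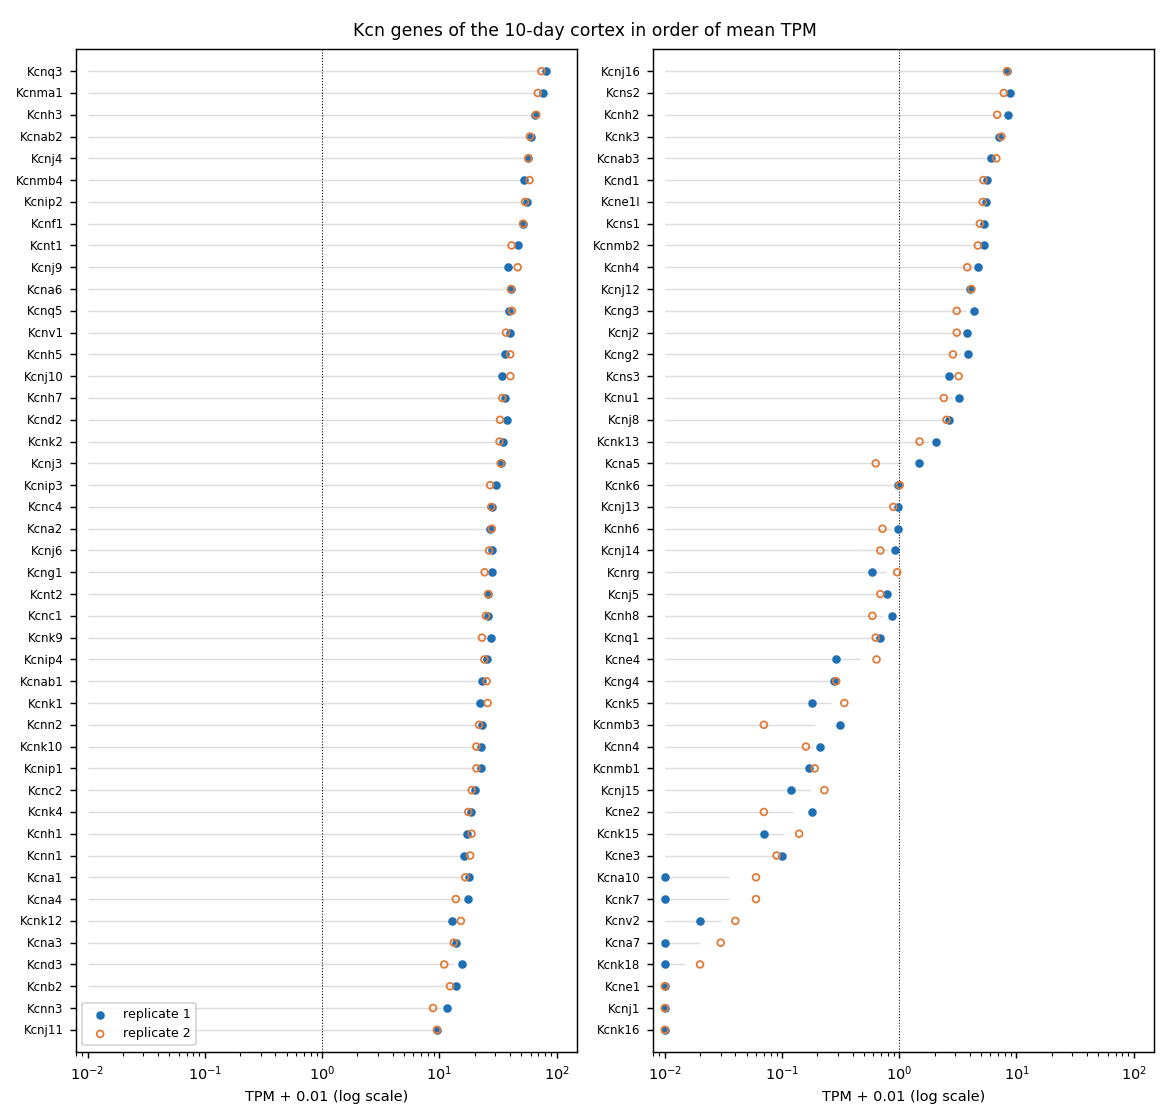
TPM of 90 of the 94 Kcn genes in replicate 1 (filled) and replicate 2 (open), in order of the mean, as TPM + 0.01 on a log axis. The dotted line marks 1 TPM, and 63 of these genes lie at or above it in both libraries.

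Voltage-gated pore and silent subunits, 40 genes, carried 49.7% ± 0.483 (SD, n = 2) of the summed member TPM. Auxiliary subunits followed with 16.8% ± 0.224 and inward rectifiers with 13.4% ± 0.715. Calcium- or sodium-activated channels held 11.4% ± 0.445 and K2P leak channels 8.63% ± 0.0277. By single family the inward rectifiers summed highest, at 223 and 234 TPM over 15 genes, with the 5 Kv7 genes next at 216 and 207 TPM. As shares of the members' TPM these were 13.4% and 12.3%, and the alignment-free tables put both families at 12.8%. The family with the highest median was Kv7, at 40.6 TPM ± 1.39.

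**Figure D2:**
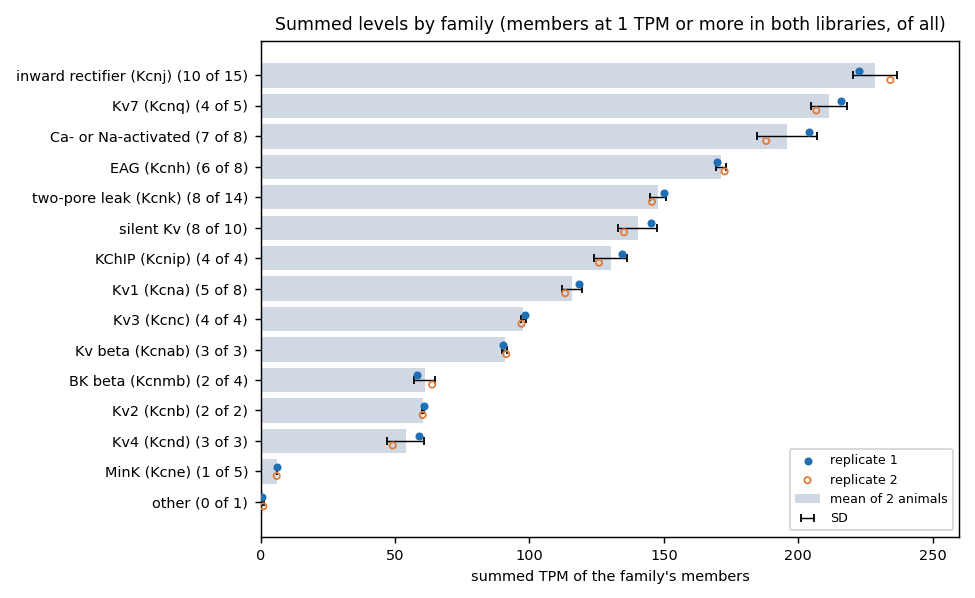
Summed TPM per family, with bars for the mean of 2 animals, SD whiskers and a point per library; labels count the members that reached 1 TPM in each library, of all. The inward rectifiers, Kv7 and activated channels lie above 180 TPM and the MinK family at 5.96 TPM.

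Among the Kv7 genes, Kcnq3 (chr15:65986387-66286642, minus strand), a subunit of the M channel that restrains repetitive firing, was at 81.7 TPM in replicate 1 and 74.3 TPM in replicate 2. Kcnq5, which can join the same channels, was at 39.6 and 41.5 TPM. Kcnq1, the heart channel that works with Kcne1, was at 0.67 and 0.62 TPM from 34 and 37 reads.

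Log2 ratios were taken within a library on TPM + 0.1, for 25 pairs of related genes. A pair was counted as beyond the replicate spread where the ratio pointed the same way in both libraries and its mean was over 2 SD, which held for 23 of 25. The deposited credible intervals of the members, of a level not given in the sources used here, lay apart in both libraries for 22 of the 25. In the order of all 94 genes, by contrast, neighbours had intervals apart in both libraries in 4 of 93 steps, among them Kcnb2 over Kcnn3. One of the 4, Kcnq1 over Kcne4, turned in replicate 2 by TPM (0.62 against 0.63). For 15 of 94 members, Kcnq1 included, the deposited TPM lay outside its own interval in at least 1 library, so for these the intervals do not resolve the order by TPM.

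**Figure D3:**
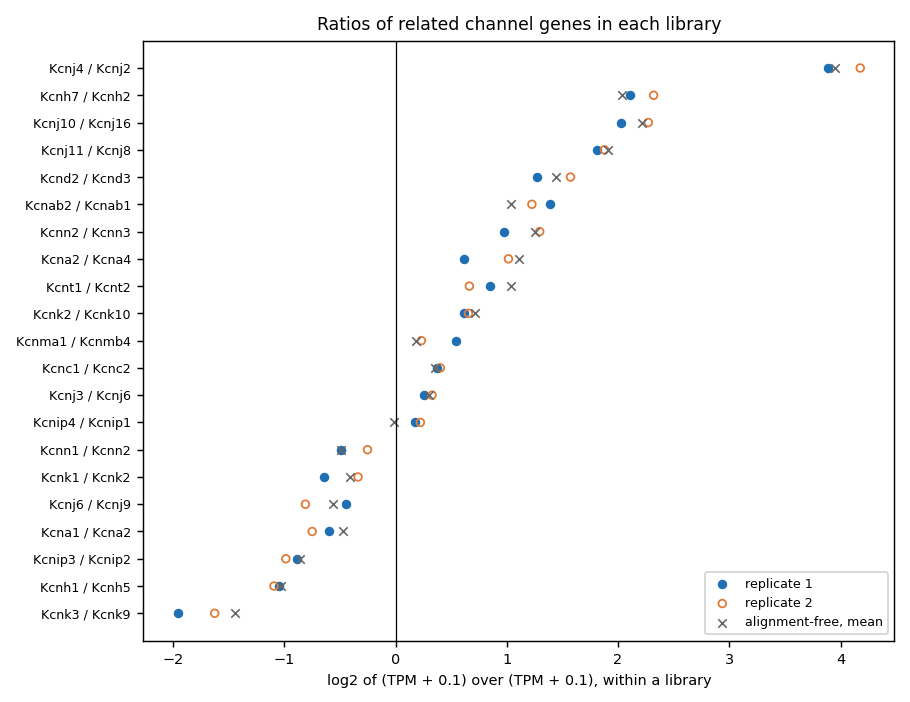
Log2 ratio of TPM + 0.1 for 21 of the 25 pairs of related Kcn genes in each library, with the alignment-free mean as a cross; positive values mean that the first gene was higher. Kcnj4 over Kcnj2 lies furthest right, at 3.89 and 4.18, and Kcnk3 over Kcnk9 furthest left.

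The Kv1 (Kcna) genes encode axonal channels with low thresholds. Kcna6 led them with 40.5 and 40.8 TPM. Kcna2, the main subunit beside nodes of myelinated axons, was at 27.1 and 28.0 TPM. Kcna1, a gene of episodic ataxia, was at 17.9 and 16.6 TPM, so that Kcna2 was 1.59-fold higher than Kcna1. Kcna4, which inactivates quickly, was at 17.6 and 13.8 TPM. Kcna3, best known from lymphocytes, was at 13.9 and 13.3 TPM. The other 3 were low: Kcna5 had 75 and 35 reads (1.45 and 0.62 TPM), Kcna10 had 0 and 2 reads, and Kcna7 had 0 and 1.

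Kv2 channels carry much of the delayed rectifier current of pyramidal cell bodies. Kcnb2 was at 13.8 and 12.3 TPM. Amigo1, an adhesion protein that binds Kv2 channels, was at 19.0 and 19.6 TPM. The silent subunits, which form no channel alone and join Kv2, were uneven. Kcnf1 was at 51.6 and 51.8 TPM, above Kcnb2 in both libraries. Kcnv1 followed at 40.4 and 37.01 TPM and Kcng1 at 28.1 and 24.3 TPM. Kcns2 was at 8.78 and 7.78 TPM, and Kcns1, Kcng3, Kcng2 and Kcns3 lay between 2.63 and 5.23 TPM. Kcng4 was at 0.27 and 0.28 TPM, and Kcnv2, a gene of photoreceptors, had 1 and 3 reads.

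The Kv3 genes, whose channels allow fast firing, had a median of 25.1 TPM ± 0.141. Kcnc4 was at 28.3 and 27.7 TPM, Kcnc1 at 26.1 and 25.01 TPM and Kcnc2 at 20.2 and 18.9 TPM. Kcnc1 exceeded Kcnc2 by 0.39 ± 0.02 on the log2 scale (SD, n = 2). Of the fast-spiking interneuron list, 4 of 4 genes were at 1 TPM or more in both libraries, beside 59.1% of all nuclear protein-coding genes. Gad1, which is also on the cortical neuron list, held 79.7 and 57.8 of the summed 119 and 95.5 TPM. Pvalb was at 2.19 and 3.09 TPM from 35 and 54 reads.

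Kv4 channels carry the A-type current of dendrites. Kcnd2 was at 37.7 and 32.9 TPM, Kcnd3 at 15.6 and 11 TPM and Kcnd1 at 5.58 and 5.21 TPM. Kcnd2 exceeded Kcnd3 by 2.68-fold. All 4 genes of the KChIP calcium sensors that bind Kv4 were above 20 TPM in both libraries. Kcnip2 was at 56.2 and 53.8 TPM, Kcnip3 at 30.4 and 27.1 TPM, Kcnip4 at 25.5 and 24.2 TPM and Kcnip1 at 22.5 and 20.7 TPM. The KChIP genes summed to 130 TPM ± 6.15 and the Kv4 genes to 54.0 TPM ± 6.86. Dpp6 and Dpp10, the membrane partners of the same channels, were at 88.9 and 74.0 TPM and at 57.5 and 51.5 TPM.

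The EAG family joins the Eag, Erg and Elk channels. Kcnh3, an Elk channel of the forebrain, was at 65.1 and 67.2 TPM. Kcnh5 was at 36.0 and 40.2 TPM and Kcnh1, its Eag relative, at 17.4 and 18.8 TPM. Kcnh7, an Erg channel, was at 36.5 and 34.5 TPM. Its relative Kcnh2, the gene of cardiac long QT syndrome, was at 8.40 and 6.83 TPM, which made Kcnh7 4.63-fold higher. Kcnh4 was at 4.70 and 3.79 TPM, while Kcnh6 was at 0.96 and 0.71 TPM and Kcnh8 at 0.85 and 0.58 TPM.

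Kcnma1, the pore subunit of the BK channel that opens on calcium and depolarisation, was at 76.6 and 69.2 TPM. Kcnmb4, its beta subunit typical of brain, was at 52.4 and 58.9 TPM and held 91.3% of the TPM of the 4 BK beta genes. The ratio of Kcnma1 to Kcnmb4 was 0.55 and 0.23 on the log2 scale and did not exceed 2 SD. Kcnmb2 was at 5.29 and 4.67 TPM, and Kcnmb3 (9 and 2 reads) and Kcnmb1, the smooth muscle subunit (12 and 15 reads), were under 1 TPM. Of the gamma subunits Lrrc55 was at 27.9 and 29.2 TPM, Lrrc38 at 0.46 and 0.57 TPM, and Lrrc26 and Lrrc52 had 0 reads in both libraries.

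The sodium-activated genes Kcnt1 and Kcnt2 were at 46.7 and 41.4 TPM and at 25.9 and 26.1 TPM. Of the small-conductance SK genes, which shape the hyperpolarisation after spikes, Kcnn2 was at 23.1 and 21.8 TPM, Kcnn1 at 16.4 and 18.3 TPM and Kcnn3 at 11.7 and 8.83 TPM. Kcnn4, the intermediate-conductance channel of blood cells, had 7 and 5 reads. Kcnu1, known as the sperm channel Slo3, was listed at 3.24 and 2.39 TPM from 56 and 52 reads. Nearly all of these reads went to short annotated forms: Kcnu1-202 (381 codons) took 35.4 and 38.6 reads and Kcnu1-203 (160 codons) 20.6 and 11.8. The 1121-codon form Kcnu1-201 took 0 and 1.51 reads in the alignment-based tables but 20.97 and 17.2 in the alignment-free ones. Whether the full-length message was present was therefore not settled by these tables.

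Among the inward rectifiers the strongly rectifying Kcnj4 was at 57.1 and 57.4 TPM. Its relative Kcnj2 was at 3.77 and 3.08 TPM, a 16.3-fold ratio and the widest of the 25 pairs. Kcnj12 was at 4.04 and 4.12 TPM and Kcnj14 at 0.91 and 0.68 TPM. The subunits of G protein-gated channels included Kcnj9 at 38.4 and 46.6 TPM, Kcnj3 at 33.8 and 33.4 TPM and Kcnj6 at 28.2 and 26.6 TPM. Kcnj5, the heart subunit of that group, was at 0.77 and 0.68 TPM. Snx27, a sorting protein that binds Kcnj6 and Kcnj9, was at 44.5 and 41.0 TPM.

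Kcnj10, the channel by which astrocytes take up potassium, was at 34.2 and 40.4 TPM, and Kcnj16, its partner, at 8.32 and 8.28 TPM. Kcnj10 was 4.43-fold higher than Kcnj16. The astrocyte list of 6 genes summed to 1022 and 1025 TPM. Kcnj11 was at 9.55 and 9.53 TPM and Kcnj8, the subunit of pericytes and vessels, at 2.65 and 2.52 TPM, a 3.59-fold ratio. The sulfonylurea receptors that complete these ATP-sensitive channels had the same order, with Abcc8 at 15.3 and 15.1 TPM and Abcc9 at 4.03 and 4.11 TPM. Kcnj13, a channel of choroid plexus and other epithelia, had 21 reads in each library (0.96 and 0.88 TPM). The choroid plexus sum above, most of it Ttr, was about 2-fold apart. Kcnj15 had 9 and 18 reads, and Kcnj1, the kidney channel, had 0 in both.

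Of the K2P leak channels, 8 of 14 were at 1 TPM or more in both libraries. Kcnk2, the mechanosensitive TREK1, was at 35.0 and 32.6 TPM. Its relatives Kcnk10 and Kcnk4 were at 22.8 and 20.7 TPM and at 18.8 and 17.7 TPM. The acid-sensitive Kcnk9, an imprinted gene in mouse brain, was at 27.8 and 23.1 TPM and its relative Kcnk3 at 7.08 and 7.43 TPM, a 3.46-fold ratio. No alleles were separated in these tables. Kcnk1 was at 22.4 and 25.8 TPM and Kcnk12 at 12.9 and 15.2 TPM. Kcnk13, a channel of microglia, was at 2.04 and 1.48 TPM, with the microglial list of 4 genes at sums of 85.1 and 81.2 TPM. Kcnk6 was at 0.96 and 1.00 TPM. Kcnk5, Kcnk15, Kcnk7 and Kcnk18 each had at most 14 reads in a library, and Kcnk16 had 0.

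The Kv beta subunits attach to Kv1 channels and resemble oxidoreductases. Kcnab2 was at 60.8 and 59.3 TPM, Kcnab1 at 23.2 and 25.3 TPM and Kcnab3 at 6.05 and 6.72 TPM. Kcnab2 exceeded Kcnab1 by 2.47-fold. Among the 14 partner genes outside the Kcn symbols are other proteins of axonal Kv1 complexes: Adam22 at 102 and 93.4 TPM, Cntnap2 at 65.1 and 60.2 TPM, Lgi1 at 51.9 and 42.1 TPM and Cntn2 at 28.1 and 28.2 TPM. Of the 14 partners 11 were at 1 TPM or more in both libraries. The MinK family was nearly silent: Kcne1l was at 5.47 and 5.14 TPM and held 89.0% of the family's TPM. Kcne4 was at 0.28 and 0.63 TPM from 10 and 29 reads, Kcne2 and Kcne3 had at most 5 reads, and Kcne1 had 0 in both libraries. Kcnrg, a protein that hinders Kv assembly, was at 0.58 and 0.95 TPM.

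In all, 25 members were under 1 TPM in both libraries and 2 (Kcna5 and Kcnk6) in 1 library only. Kcne1, Kcnj1 and Kcnk16 had 0 reads in both, and 6 further genes had at most 3 reads in each. Finding 0 reads leaves room for as many as 3 with 95% confidence, which for a 1-kb transcript was 0.160 TPM in replicate 1 and 0.147 TPM in replicate 2. For the genes with 0 reads expression was not detectable at this depth in the alignment-based tables, and for the 6 further genes it rests on those few reads. The alignment-free tables also put Kcne1 and Kcnk16 at 0, but Kcnj1 at 0.073 and 0.047 TPM. Such limits cover counting error only.

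The 2 animals gave like levels. Across the 94 genes, which are not independent, Pearson's r of log2(TPM + 1) was 0.997 and Spearman's rho 0.994. For the ratio between animals, expected reads were scaled with TMM factors (a normalisation by the trimmed mean of log ratios) and genes with a mean of 100 reads or more were kept. None of 66 such members was 2-fold apart, beside 0.37% of all genes with that many reads (47 of 12689). The members' log2 ratios of replicate 2 over replicate 1 lay between -0.37 and 0.37, and 55 of 66 within 0.25. Their median was 0.06 (coding genes 0.01), and 41 were higher in replicate 2 and 25 in replicate 1. Of 11890 coding genes with that many reads, 6458 were higher in replicate 2 and 5432 in replicate 1. The median coefficient of variation of TPM was 5.41%, beside 6.13% for coding genes. The median absolute log2 ratio of scaled reads had the other order, at 0.111 for the members and 0.086 for coding genes.

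**Figure D4:**
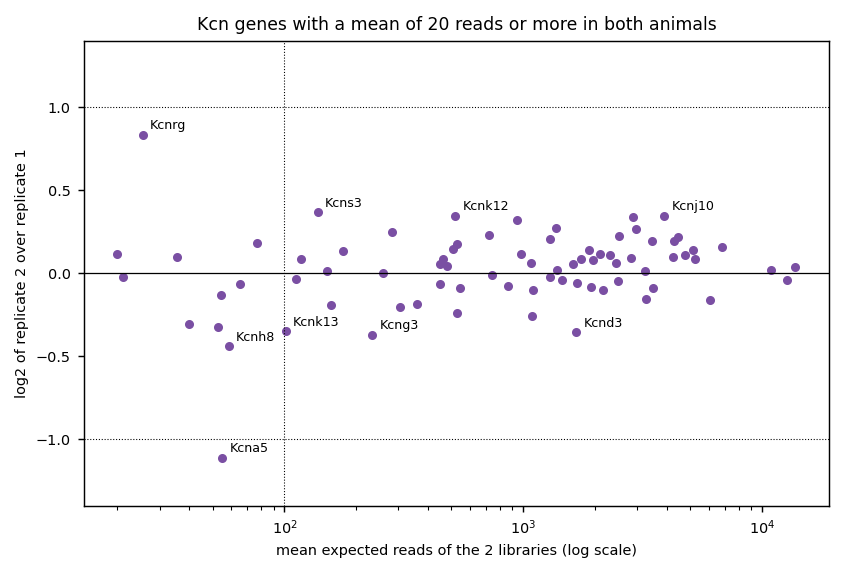
Log2 ratio of replicate 2 over replicate 1 against mean expected reads (log axis) for Kcn genes with a mean of 20 reads or more; dotted lines mark 2-fold and 100 reads. Kcna5, at 75 and 35 reads, is the single gene outside 2-fold, and it lies under 100 reads.

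The ratios furthest from 0 lay in both directions. The highest of the 66 was that of Kcns3, at 0.37 from 119 and 156 reads, and Kcnk13, with 113 and 90 reads, was at -0.35. Kcnj10 had 3396 reads in replicate 1 and 4386 in replicate 2, a log2 ratio of 0.35 after scaling. Kcnj9, its neighbour on chromosome 1, had 2508 and 3223 reads, a ratio of 0.34. Kcnk1 was at 0.32 and Kcnk12 at 0.35. In the other direction Kcnd3 had 1855 and 1472 reads, a log2 ratio of -0.36, and Kcng3 had 261 and 205, a ratio of -0.37. The oligodendrocyte and striatal markers given above also differed between the animals (log2 ratio 0.96 for Mbp and -0.36 for Ppp1r1b), while the 6 astrocyte markers lay between -0.12 (Aqp4) and 0.14 (Slc1a2), 3 of them below 0 and 3 above. The part of these differences in the members' ratios was not tested.

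The deposited alignment-free quantification of the same reads is no independent measurement, but shows which levels rest on the method. With each table scaled to its nuclear protein-coding TPM, none of 66 members at 5 TPM or more in either was 2-fold apart in both libraries, beside 1.94% of such genes (238 of 12256). At 1.5-fold 2 members were apart: Kcna4, lower by the alignment-free method with log2 ratios of -0.72 and -0.59, and Kcnmb2, with -0.63 and -0.81. This was 2 of 66 members, beside 4.99% of coding genes at that limit (612 of 12256).

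Transcript levels were read for the 37 members at 10 TPM or more that have at least 2 annotated transcripts, as shares of the gene's TPM. The leading transcript held a median of 65.4% and was the same in both libraries for 35 genes, the exceptions being Kcnk2 and Kcnn2. It was the same in both quantifications for 31. Transcripts with at least 90% of the longest coding length held a median of 86.6% of a gene's TPM, and over 50% in 32 of 37 genes. Transcripts with no annotated coding sequence held a median of 5.26% of TPM and 1.49% of reads, since a short transcript has more TPM per read. In Kcnq3, for example, the 666-base transcript Kcnq3-202 held 18.1% ± 1.14 of the TPM but 164 and 149 of 13479 and 14040 reads.

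**Figure D5:**
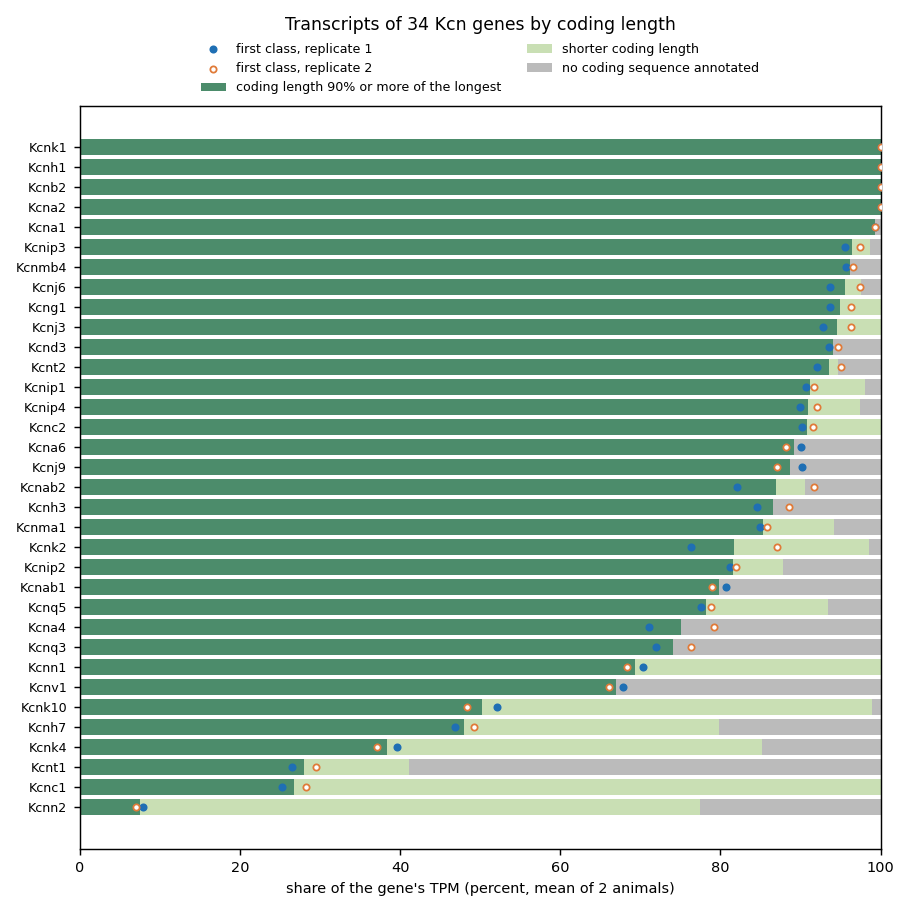
Shares of TPM (mean of 2 animals) in transcripts with at least 90% of the longest coding length, a shorter coding length, or no coding sequence, for 34 of the 37 Kcn genes; points give the first class in each library. Kcnn2, Kcnc1, Kcnt1, Kcnk4 and Kcnh7 lie under 50%.

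Kcnt1 had the largest share of TPM without coding sequence among the 37 genes. Full-length forms held 26.6% of its TPM in replicate 1 and 29.5% in replicate 2, and transcripts with no coding sequence 58.9% ± 0.719 of TPM and 59.8% of reads. Its leading transcript, Kcnt1-206, is of type retained intron and held 29.2% ± 3.18. The 1238-codon form Kcnt1-201 held 20.3% ± 1.46. In the alignment-free tables full-length forms held 22.5%. The TPM of Kcnt1 thus counted much RNA that is not annotated as coding.

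In Kcnc1 the 511-codon form Kcnc1-201 held 74.7% and 71.8%, and the 585-codon form Kcnc1-203, with the longer C-terminus, held 25.3% and 28.2%. The longer form is known to become prevalent in the mature brain. Kcnd3-202 (636 codons) held 85.3% ± 2.25 of Kcnd3. Kcnh1 was nearly even, with the 962-codon form at 54.2% ± 0.59 and the 989-codon form at 45.8% ± 0.59. Kcnma1-205 (1209 codons) held 66.2% ± 0.43 of Kcnma1.

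Forms with a shorter coding sequence held over 25% of TPM in 6 of the 37 genes: Kcnc1 (above), Kcnn2, Kcnk10, Kcnk4, Kcnh7 and Kcnn1. This class includes transcripts of type nonsense mediated decay, which are present in Kcnk4 and Kcnn1. The shorter forms of Kcnk4 held 46.9% ± 0.91, of which the 63-codon Kcnk4-205 took 30.3% ± 4.94. Those of Kcnn1 held 30.6% ± 1.39. Within this, the nonsense mediated decay transcript Kcnn1-205 (157 codons) held 12.7% ± 4.46 of the gene's TPM, so the shorter protein_coding forms alone were under 25%. Kcnk10-203 (241 codons) held 48.7% ± 2.88 of Kcnk10 and the 535-codon Kcnk10-202 held 42.3% ± 0.32, while the alignment-free tables put the longer form first with 47.7%. Kcnh7-203 (522 codons) held 31.8% ± 0.13 beside 46.8% and 49.2% for the 1195-codon form. In Kcnn2 the 434-codon Kcnn2-203 held 29.1% and 21.9%, the 574-codon forms Kcnn2-205 and Kcnn2-208 together held 37.5% and 51.6%, and forms near the longest length of 839 codons held 7.5% ± 0.7. The leading Kcnn2 transcript differed between the animals, but the 574-codon forms together were ahead of Kcnn2-203 in both.

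The annotated type of a transcript can hide its coding content. The leading transcript of Kcna6, Kcna6-201, is of type nonsense mediated decay but holds the same 529 codons as Kcna6-204. It took 64.9% and 88.2% of the TPM, and Kcna6-204 took 25.2% and 0.0%. The forms that encode all 529 codons held 89.2% ± 1.3 together, so the 2 libraries differed in how reads were split between them and little in their sum. Kcnv1-202, a retained intron, held 33.0% ± 1.25 of Kcnv1. Kcna4-202, a 370-base processed transcript, held 24.9% ± 5.79 of Kcna4 from 25.9 and 15.9 reads and was at 0 in the alignment-free tables; Kcna4 is 1 of the 2 genes over 1.5-fold apart between methods.

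Of the Kcn genes 43 overlap another annotated gene, 39 of them on the opposite strand, and the sources used here do not say if the counting used strand. Kcnip1 encloses Kcnmb1 on the opposite strand, at 21.6 TPM against 0.17 TPM. The Kcnj13 gene lies within a more highly expressed gene of the opposite strand, so its 21 reads are uncertain. Read counts were whole to within 0.05 for all members but Kcnab2 and Kcnk4.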

How the data were processed

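Total RNA of the left cortex was sequenced in 1 group of 2 mice. Per the deposited README files, the authors aligned reads to the mm10 transcriptome (annotation M21) and derived expected counts and TPM for each gene and transcript. A second set of estimated counts and TPM was derived by the authors straight from reads without alignment. For both, tools and versions are not given in the sources used, and neither is the level of the credible intervals. Alignment-free values were summed per gene.

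Members and lists were chosen with earlier results of these data known. Family is read from the symbol. Reads of CAST/EiJ alleles were quantified against mm10, and no allele was separated. The 3 highest and the lowest member of each family, members at 10 TPM or more and pairs are given by library; every member may be named, as may the genes of the marker and partner lists; rows of other genes were chosen after their values were seen. Ratios between animals used rounded expected counts, TMM factors (edgeR 4.0.16, R 4.3.3) and 0.5 reads added. Pair ratios used TPM + 0.1. Coding sequences and coordinates came from GENCODE M21. Some members that these rules take are not reported here by name, but enter all counts and sums. Only the TMM scaling and the 2-fold call between animals were tested on simulated gene counts. Python 3.11.15, pandas 2.3.3, numpy 2.4.6 and matplotlib 3.10.9 were used, with DESeq2 1.42.0 for its size factors in an alternative. Nuclear protein-coding genes held 50.8% and 48.5% of TPM in the alignment-based tables and 79.1% and 80.0% in the alignment-free tables, which moves every TPM.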

Additional observations from a re-analysis of the deposited data

How the results depend on the processing

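The count of members at 1 TPM or more (67) was 76 at 0.5 TPM, 56 at 5 TPM, 72 by the alignment-free method and 68 in either library alone. The scale of TPM moved the levels: the median member (9.90 TPM) came to 14.05 TPM by the alignment-free method and 19.9 TPM when rescaled over nuclear protein-coding genes, and the members' sum (1712 TPM) to 2527 and 3448 TPM. With 1 library left out the median lay between 9.18 and 10.62 TPM and the sum between 1690 and 1734 TPM. Members 2-fold apart between animals (0) numbered 1 at a mean of 20 reads or more (Kcna5) and 10 with no filter on reads, and 0 with DESeq2 size factors, library totals or alignment-free counts. Members apart between quantifications (0) numbered 2 at 1.5-fold, Kcna4 and Kcnmb2. The alignment-free tables turned the sign of the mean log2 ratio in 3 of the 25 pairs, among them Kcnip4 over Kcnip1, at -0.012. With 1 library left out no count of pairs beyond the spread, of shared leading transcripts or of ratios between animals can be given. No paired analysis was possible because the libraries form a single group. Levels under about 3 reads cannot be told from 0 at this depth.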

Other observations

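Kcn genes that lie within 100000 bases of each other often differed in level. On chromosome 3, Kcna3 and Kcna2 had means of 13.6 and 27.6 TPM and the next gene, Kcna10, 0.025 TPM. Kcna1 and Kcna6 on chromosome 6 were both high, at 17.3 and 40.7 TPM. Kcnj9 and Kcnj10, which are 11891 bases apart on opposite strands of chromosome 1, stood at 42.5 and 37.3 TPM, and both had more reads in replicate 2. Kcnj16 and Kcnj2 on chromosome 11 were at 8.30 and 3.42 TPM, and Kcnj5 and Kcnj1 on chromosome 9 at 0.725 TPM and 0.

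Among Kcn symbols with no protein_coding transcript, which are not counted as members, Kcnmb4os2 was at 22.5 and 22.4 TPM from 270 and 319 reads. It overlaps 716 bases of Kcnmb4 on the opposite strand. Kcnq1ot1, the long antisense RNA of the imprinted Kcnq1 locus, had 5328 and 3834 reads against 34 and 37 for Kcnq1. Reads do not allow for its length, and by TPM it was at 3.06 and 2.01 against 0.67 and 0.62 for Kcnq1. These genes were chosen after their values were seen.

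Rows of type sense intronic or TEC (an annotation class for transcribed regions of unsettled nature) also lie inside Kcn genes on the same strand. With a mean of 20 reads or more there were 31 such rows in 7 genes, with a median log2 ratio of -0.64 after TMM scaling, and 31 of 31 were higher in replicate 1. Of these 23 lie in Kcnip4, where they summed to 3378 and 2329 reads, a log2 ratio of -0.56, while Kcnip4 itself was at 0.06. The pattern was not particular to Kcn genes: of 1010 such rows over all genes, 89.1% were higher in replicate 1, with a median of -0.47, beside 46.4% of protein-coding rows. These rows were examined after their values were seen, and the cause was not tested.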
